A study of Mus musculus with 9 samples.

Results

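The genes described are those of the cGAS-STING pathway and of the enzymes that keep DNA out of its reach, read as ribosome footprints in 3 immortalized mouse striatal cell lines. They were taken by symbol from the table of deposited counts: Cgas and its older symbol Mb21d1, Tmem173 (now named Sting1), Tbk1, Trex1, Samhd1, Enpp1, Banf1, Rnaseh2b and Dnase2a. These are 10 rows of 36410, and since Cgas and Mb21d1 name 1 locus they stand for 9 genes. All 10 rows passed the filter on low counts and were tested among 12678 rows.

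cGAS is an enzyme that binds DNA in the cytoplasm and makes the second messenger cGAMP. cGAMP binds STING on the endoplasmic reticulum, which recruits the kinase TBK1 and leads to interferon and inflammatory gene expression. The pathway is held back at several points: nucleases degrade stray DNA or RNA:DNA hybrids, SAMHD1 limits the supply of deoxynucleotides, BAF (the product of Banf1) covers DNA that would otherwise be reached by cGAS, and ENPP1 hydrolyses cGAMP outside the cell. Loss of TREX1, SAMHD1 or a subunit of RNase H2 causes Aicardi-Goutieres syndrome, an inflammatory disease of the brain.

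The control line was STHdhQ7/Q7, whose knock-in Htt alleles both encode 7 glutamines. The HD-het line was STHdhQ7/Q111, with 1 allele of 7 and 1 of 111 glutamines, and the HD-homo line was STHdhQ111/Q111, with 111 glutamines in both alleles. All 3 lines carry the strain label C57/BL6, are immortalized cells of mouse embryos and were treated for 10 min with cycloheximide, a blocker of elongation, before lysis and digestion with RNases T1 and A. Footprints of 26 to 32 nt were then cut from the 80S monosome RNA, with 3 libraries per line from separate rounds of culture. Each genotype was a single line, so genotype and line cannot be told apart, and the p-values measure the spread between the libraries of these lines. A footprint count joins the amount of a transcript with the number of ribosomes on it, and in bulk lysates fewer cells with a transcript and fewer footprints per cell cannot be told apart. Libraries of matched mRNA were not used here.

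Library totals ran from 22504543 to 41888701 counts, and CPM below are counts per 1e6 of the library total after composition scaling. A count of 0 in 1 library allows up to 3 counts, which was between 0.0714 and 0.142 CPM. Htt footprints were lower in both HD lines, from 28.7 ± 1.07 CPM in the control line to 20.3 ± 0.818 in HD-het and 6.62 ± 0.971 in HD-homo (SD, n = 3), and counts per gene cannot show the length of the repeat. Of 10 markers of striatal projection neurons, the dopamine receptors Drd1 and Drd2 held 0 counts in all 9 libraries, and the 10 summed to 44.4-51.0 CPM in control libraries, 48.1-51.9 in HD-het and 67.9-75.1 in HD-homo, mostly from Foxp1. The neural precursor marker Nes ranged from 307 to 467 CPM in control, 1028 to 1175 in HD-het and 6.43 to 7.65 in HD-homo, and Pax6 reached at most 0.139 CPM in HD-homo against 16.1-18.8 in control. The 6 precursor markers together, mostly Vim, summed to 9585-9855, 8990-9821 and 5989-6522 CPM. Markers of endothelial cells summed to at most 2.32 CPM and those of T and B cells to at most 0.0476 CPM. The part of these line differences in the results below was not tested.

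cGAS itself separated the lines more than any other member. Cgas (gene identifier 214763, chromosome 9, 78430518 to 78443237, minus strand of GRCm38.p6, the build of all coordinates given here) held 0, 2 and 0 counts in the control libraries, 57, 77 and 35 in HD-het and 1311, 1187 and 1097 in HD-homo. No value of 1 line reached that of the next. The HD-homo level of 43.5 ± 6.31 CPM exceeded the HD-het level of 1.98 ± 0.281 CPM 21.7-fold (SD, n = 3, log2 difference 4.44, SE 0.18, adjusted p = 5.13e-09, edgeR's quasi-likelihood test). With only 2 counts in the control line, its ratios carry a wide counting interval: 95.5 for HD-het (95% exact interval 26.0 to 795) and 2013 for HD-homo (557 to 16629), which covers counting error only. Both contrasts passed the threshold (adjusted p = 1.05e-06 and 8.17e-10, edgeR). Both control counts came from replicate 2, and without it the fitted log2 difference moved from 6.31 to 8.79 for HD-het and from 10.75 to 13.23 for HD-homo. The control line then held 0 counts, so these later values do not estimate a fold.

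The row under Mb21d1 followed the same order. It held 0 counts in every control library, 19, 24 and 15 in HD-het and 498, 526 and 492 in HD-homo. Against 3 counts per control library HD-het was at least 7.00-fold higher, and for HD-homo the bound was at least 187-fold. Its count was between 31.2% and 44.8% of the Cgas count in the 6 HD libraries, and its range of 31.2-42.9% in HD-het overlapped the 38.0-44.8% in HD-homo. Both rows name one gene and may hold the same fragments, so they are not independent readings. The pseudogene Gm8093, which overlaps Cgas on the other strand in GENCODE M21, was not among the rows used here.

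The sequence before the start of Cgas is shown beside that of Enpp1, the member with the next largest rise in HD-homo cells, and that of Tbk1, whose level moved least of the signalling genes. Each is the 250 bases before the RefSeq start on the minus strand of GRCm38.p6, printed 5′ to 3′, with CG dinucleotides in capitals.
Cgas, chr9:78443238-78443487: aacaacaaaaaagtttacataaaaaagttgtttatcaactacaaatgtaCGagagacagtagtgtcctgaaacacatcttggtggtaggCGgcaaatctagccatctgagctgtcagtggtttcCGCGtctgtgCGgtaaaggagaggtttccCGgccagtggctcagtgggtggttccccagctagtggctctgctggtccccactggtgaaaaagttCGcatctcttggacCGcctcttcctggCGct
Enpp1, chr10:24712160-24712409: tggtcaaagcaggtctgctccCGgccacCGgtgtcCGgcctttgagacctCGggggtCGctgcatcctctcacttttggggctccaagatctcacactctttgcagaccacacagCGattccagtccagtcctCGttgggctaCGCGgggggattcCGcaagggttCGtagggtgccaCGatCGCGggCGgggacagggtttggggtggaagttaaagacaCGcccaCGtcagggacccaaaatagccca
Tbk1, chr10:121586795-121587044: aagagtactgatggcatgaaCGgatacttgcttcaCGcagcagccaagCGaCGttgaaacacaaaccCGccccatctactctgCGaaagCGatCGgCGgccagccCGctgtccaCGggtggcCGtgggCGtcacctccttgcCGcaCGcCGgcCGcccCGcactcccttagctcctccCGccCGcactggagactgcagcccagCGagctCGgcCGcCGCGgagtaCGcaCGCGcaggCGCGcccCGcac
The Cgas window held 9 CG dinucleotides and 50.0% G and C, Enpp1 17 and 61.2%, and Tbk1 31 and 68.4%, against medians of 6 and 52.4% over 32851 windows. Windows of 300 bases, 250 before and 50 after the start, were found for 7 of the 9 genes, some of them with more than 1 start. A pair of GAAA half-sites in one direction with any 2 bases between them, the core of interferon-stimulated elements, was searched on both strands. It was in 0 of the 9 windows of the members and in 3.44% of all windows. At the far end of the Cgas window RefSeq models of Mto1, which encodes a mitochondrial tRNA-modifying enzyme, begin in the opposite direction, and Mto1 stood at 7.08 ± 1.05 CPM in control libraries, 6.99 ± 0.148 in HD-het and 7.82 ± 0.620 in HD-homo (SD, n = 3, adjusted p = 0.867 and 0.428 against control, edgeR).

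**Figure D1:**
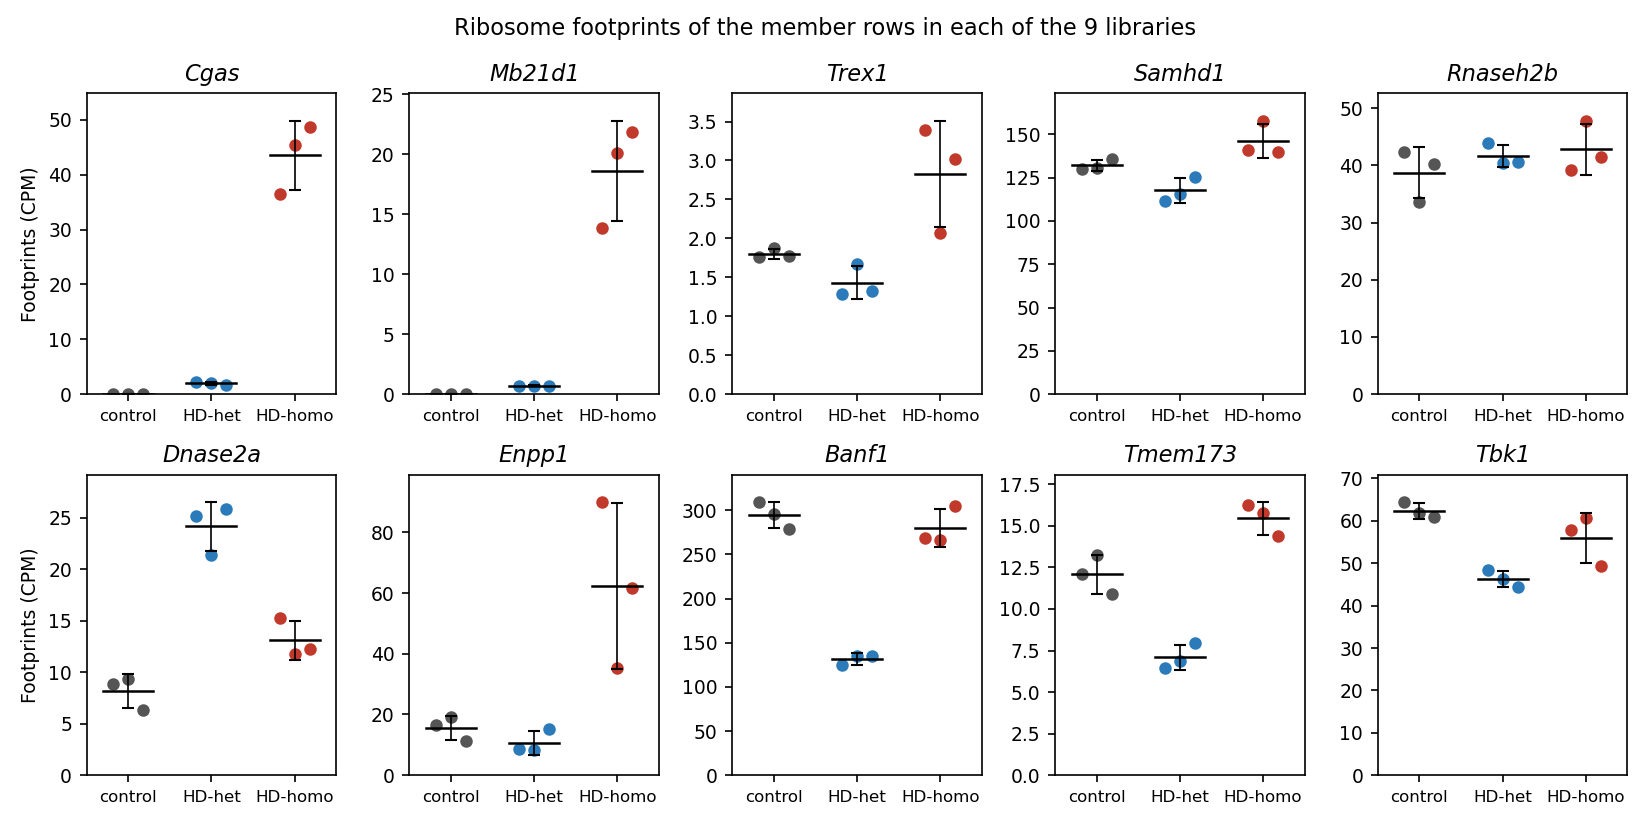
Footprints in CPM (y axis, from 0, with its own scale for each gene) of the 10 rows in each of the 9 libraries, grouped by line on the x axis. Points are libraries, long bars are means and whiskers are 1 SD (n = 3). Cgas and Mb21d1 are near 0 in control and highest in HD-homo, Dnase2a is highest in HD-het, Banf1 and Tmem173 are lowest in HD-het, and Enpp1 runs from 35.3 to 90.1 CPM among the HD-homo libraries.

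Among the nucleases, Trex1 was read thinly. TREX1 is the main exonuclease for DNA in the cytoplasm, and its row (chromosome 9, 109057932 to 109059723) held 46, 79 and 47 counts in control, 34, 61 and 28 in HD-het and 122, 54 and 68 in HD-homo. As CPM these were 1.76, 1.88 and 1.77 in control, 1.29, 1.68 and 1.32 in HD-het and 3.39, 2.06 and 3.02 in HD-homo. The HD-homo libraries were all above the control libraries, replicate 2 only slightly, and the HD-het libraries were all below them. HD-homo exceeded control 1.57-fold (log2 difference 0.65, SE 0.21, adjusted p = 0.0235, edgeR) and HD-het 1.96-fold (0.97, SE 0.21, adjusted p = 0.00184, edgeR). The HD-het difference from control was -0.32 (95% interval -0.80 to 0.17, adjusted p = 0.231, edgeR). The call against control was lost when any 1 of the 3 control libraries, HD-homo replicate 1 or HD-homo replicate 3 was left out (adjusted p = 0.0570 to 0.0977, edgeR), with log2 differences of 0.48 to 0.69.

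In GENCODE M21 Trex1 lies within the span of the checkpoint gene Atrip on the same strand, so how the counting divided fragments between them is uncertain. Atrip stood at 9.91 ± 0.542 CPM in control libraries, 7.92 ± 0.430 in HD-het and 10.3 ± 0.690 in HD-homo (SD, n = 3). It was lower in HD-het (log2 difference -0.32, adjusted p = 0.0208, edgeR), while its difference in HD-homo was 0.05 (adjusted p = 0.709, edgeR). The readthrough row Atrip-trex1 held 0 in every library.

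Samhd1 was among the most abundant members and differed little. SAMHD1 hydrolyses deoxynucleotide triphosphates and takes part in the trimming of stalled replication forks. Its row (chromosome 2, 157097534 to 157135096) lay at 130.0, 130.3 and 136 CPM in control, 111, 116 and 126 in HD-het and 141, 158 and 140.0 in HD-homo. The 3 lines did not overlap, with HD-het lowest and HD-homo highest, yet the line means were within 1.24-fold of each other. Only the contrast of HD-homo with HD-het passed the threshold (log2 difference 0.31, SE 0.08, adjusted p = 0.00462, edgeR). Against control, the difference was -0.17 in HD-het (95% interval -0.34 to 0.01, adjusted p = 0.0909, edgeR) and 0.15 in HD-homo (-0.03 to 0.32, adjusted p = 0.160, edgeR). The HD-het difference passed with library totals in place of composition factors (adjusted p = 0.0473, edgeR), without HD-het replicate 3 (adjusted p = 0.0396, edgeR) and with offsets for the GC content and length of the coding sequence (-0.36, adjusted p = 0.00143, edgeR).

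Rnaseh2b was level across the lines. It encodes an accessory subunit of RNase H2, which cuts RNA in RNA:DNA hybrids and removes ribonucleotides from DNA. The row (chromosome 14, 62332068 to 62372996) lay at 42.4, 33.7 and 40.2 CPM in control, 43.9, 40.4 and 40.7 in HD-het and 39.2, 47.8 and 41.5 in HD-homo, and all 3 ranges overlapped. The intervals of its log2 differences were -0.13 to 0.34 for HD-het and -0.09 to 0.38 for HD-homo against control (adjusted p = 0.414 and 0.299, edgeR), and -0.20 to 0.28 between the HD lines (adjusted p = 0.764). Its partners, looked at with their values known, differed between lines. The catalytic subunit Rnaseh2a was lower in HD-het, with 74.8 ± 7.18 CPM against 133 ± 5.03 in control (SD, n = 3, log2 difference -0.83, adjusted p = 1.02e-05, edgeR), and higher in HD-homo, with 158 ± 1.29 CPM (0.25, adjusted p = 0.0291, edgeR). Rnaseh2c was lower in both HD lines, at 19.4 ± 2.38 CPM in HD-het and 24.1 ± 0.959 in HD-homo against 37.6 ± 4.56 in control (log2 differences -0.96 and -0.64, adjusted p = 3.92e-05 and 9.08e-04, edgeR). Per kb of coding sequence, the mean of Rnaseh2c was above that of Rnaseh2b in control (74.6 against 41.9 CPM per kb), below it in HD-het (38.5 against 45.1) and close to it in HD-homo (47.7 against 46.3). The genes that overlap Rnaseh2b, Dleu7 and Gucy1b2, were at or near 0.

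Among the member nucleases Dnase2a had the largest differences from control, and HD-het was its highest line. It encodes the acid DNase of lysosomes, which digests DNA taken up or delivered by autophagy. The row (chromosome 8, 84908755 to 84911703) lay at 8.86, 9.37 and 6.32 CPM in control, 25.2, 21.4 and 25.9 in HD-het and 15.3, 11.8 and 12.2 in HD-homo. No line overlapped another, in the order control, HD-homo, HD-het. HD-het exceeded control 2.94-fold (log2 difference 1.55, SE 0.16, adjusted p = 1.09e-05, edgeR), HD-homo exceeded it 1.60-fold (0.68, SE 0.16, adjusted p = 0.00498, edgeR), and HD-homo was below HD-het by a log2 difference of -0.88 (SE 0.16, adjusted p = 3.99e-04, edgeR). Macrophages are rich in this enzyme, and 10 markers of microglia and macrophages summed to 6.96-9.58 CPM in control libraries, 22.6-35.5 in HD-het and 7.19-8.51 in HD-homo, mostly from Tmem119 and the lysosomal Cd68. Of the 10, Cx3cr1, C1qa and Tyrobp were at 0 in all 9 libraries, and Aif1 and Itgam were at 0 in control and HD-homo with 2 counts and 1 count in HD-het. The rest were Csf1r, with 32, 32 and 88 counts summed over control, HD-het and HD-homo, Ptprc, with 14, 16 and 9, and P2ry12, with 28, 20 and 2. Their part in the level of Dnase2a was not tested. In GENCODE M21 the opposite-strand gene Mast1 overlaps Dnase2a, and it stood at 1.12, 0.828 and 0.453 CPM on average (control, HD-het, HD-homo), below Dnase2a and in another order.

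Enpp1, the brake that acts on cGAMP, was higher in HD-homo cells. ENPP1 is a membrane enzyme that hydrolyses cGAMP and ATP outside the cell. Its row (chromosome 10, 24637914 to 24712159) lay at 16.4, 19.2 and 11.2 CPM in control, 8.50, 8.22 and 15.1 in HD-het and 90.1, 35.3 and 61.6 in HD-homo. All HD-homo libraries were above all others, while control and HD-het overlapped. Within the HD-homo line Enpp1 was the most uneven member (coefficient of variation 43.9%). HD-homo exceeded control 3.98-fold (log2 difference 1.99, SE 0.33, adjusted p = 5.08e-04, edgeR) and HD-het 5.96-fold (2.58, SE 0.34, adjusted p = 5.00e-05, edgeR). Leaving out each library in turn gave log2 differences from control of 1.63 to 2.28 and kept the call. The HD-het difference from control was -0.58 (95% interval -1.33 to 0.17, adjusted p = 0.160, edgeR), and without HD-het replicate 3, the highest of the line, it was -0.93 (adjusted p = 0.0477, edgeR).

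Banf1, in contrast, was lower in the HD-het line. BAF is a small protein that binds double-stranded DNA and links it to the nuclear envelope, and Banf1 (chromosome 19, 5364633 to 5366876) has a coding sequence of only 267 nt. It lay at 309, 295 and 279 CPM in control, 124, 135 and 135 in HD-het and 268, 267 and 305 in HD-homo. HD-het stood below every other library, and control and HD-homo overlapped. HD-het was 2.24-fold below control (log2 difference -1.16, SE 0.08, adjusted p = 1.03e-06, edgeR) and HD-homo was 2.13-fold above HD-het (1.09, SE 0.08, adjusted p = 7.18e-07, edgeR). HD-homo differed from control by -0.07 (95% interval -0.26 to 0.11, adjusted p = 0.502, edgeR). With the offsets for GC content and length the HD-het difference was -0.83 and still past the threshold (adjusted p = 7.24e-06, edgeR). Banf1 overlaps Eif1ad on the other strand, and the use of strand in the counting is not given in the sources used here. Eif1ad was also lower in HD-het, at 39.6 ± 1.87 CPM against 59.8 ± 3.16 in control and 61.3 ± 8.42 in HD-homo (SD, n = 3, log2 difference from control -0.60, adjusted p = 4.67e-04, edgeR).

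**Figure D2:**
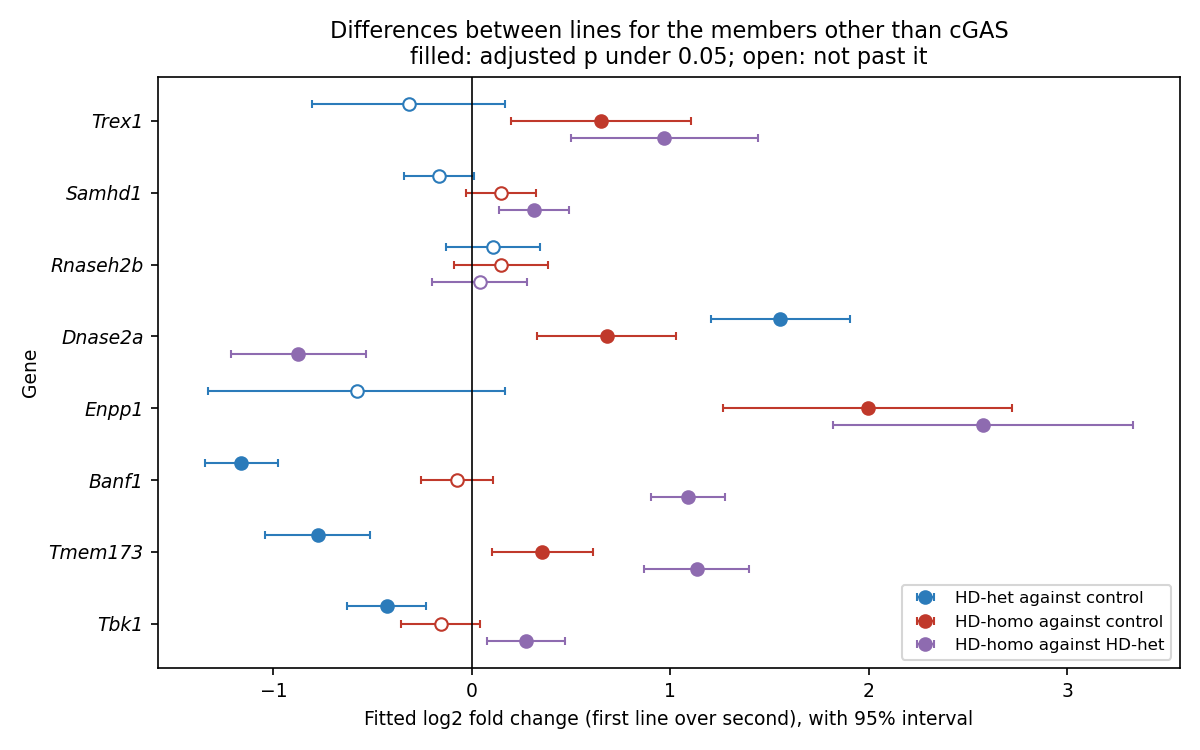
Fitted log2 difference between lines (x axis) with its 95% interval for the 8 members other than the 2 cGAS rows (y axis), in 3 colours for the 3 comparisons. Filled points passed an adjusted p of 0.05 and open points did not. Rnaseh2b stays near 0 in all 3, Dnase2a is the one called higher than control in both HD lines, and Enpp1 has the widest intervals.

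The receptor and kinase downstream of cGAS were both lowest in HD-het. Tmem173, which encodes STING (chromosome 18, 35733678 to 35740554), lay at 12.1, 13.2 and 10.9 CPM in control, 6.45, 6.85 and 7.94 in HD-het and 16.3, 15.8 and 14.4 in HD-homo, with no overlap between lines. It was 1.71-fold lower in HD-het and 1.28-fold higher in HD-homo than in control (adjusted p = 2.03e-04 and 0.0262, edgeR), and HD-homo stood 2.19-fold above HD-het (adjusted p = 8.07e-06). The HD-homo call did not survive leaving out replicate 1 or 3 of control or replicate 1 of HD-homo (adjusted p = 0.0867, 0.104 and 0.0675, edgeR). Tbk1 (chromosome 10, 121546455 to 121586794) lay at 64.5, 61.9 and 60.9 CPM in control, 48.3, 46.2 and 44.4 in HD-het and 57.7, 60.7 and 49.4 in HD-homo. It was lowest in HD-het, 1.35-fold below control (adjusted p = 0.00168, edgeR), and did not differ past the threshold between HD-homo and control (95% interval of the log2 difference -0.35 to 0.04). HD-homo stood 1.21-fold above HD-het (adjusted p = 0.0192, edgeR), a call lost when only the 6 libraries of both lines were fitted (adjusted p = 0.0776, edgeR), without HD-het replicate 3 (0.0571) and without HD-homo replicate 2 (0.0578). The HD-homo and HD-het lines differed 21.7-fold for Cgas, 2.19-fold for Tmem173 and 1.21-fold for Tbk1.

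Counted as 9 genes, 2 were higher in HD-het than in control (Cgas and Dnase2a) and 3 lower (Banf1, Tmem173 and Tbk1). Of all rows tested, 31.0% were called higher and 29.1% lower in this comparison. In HD-homo against control 5 were higher (Cgas, Enpp1, Dnase2a, Trex1 and Tmem173) and 0 lower, where 23.3% and 22.3% of all rows were called, and 0 were lower at an unadjusted p under 0.05 in edgeR or past the threshold in DESeq2. Between the HD lines 7 were higher in HD-homo and Dnase2a alone was lower, where 34.6% and 32.8% of all rows were called. The ranges of the libraries did not overlap for 7, 7 and 8 of the 9 genes in these comparisons, against 71.2%, 55.5% and 69.5% of all rows. The median log2 difference over the 9 genes, with cGAS read by its Cgas row, was -0.32 in HD-het and 0.35 in HD-homo against control and 0.97 between the HD lines (-0.24, 0.50 and 1.03 over the 10 rows), beside 0.02 over all rows in each. The comparisons share libraries and are not independent.

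Per kb of coding sequence, the order of the members differed between the lines. Banf1 led in each, at 1103 ± 56.2 CPM per kb in control cells, 493 ± 23.5 in HD-het and 1049 ± 81.4 in HD-homo (SD, n = 3), followed by Samhd1 and Rnaseh2b. In control the rest followed as Tbk1, Tmem173, Dnase2a, Enpp1, Trex1 and Cgas, and only Dnase2a and Enpp1 overlapped as neighbours. In HD-het Dnase2a came next after these 3, overlapping Tbk1, and Cgas overlapped Trex1 at the bottom (1.30 ± 0.185 against 1.52 ± 0.228 CPM per kb). In HD-homo that place was taken by Cgas at 28.6 ± 4.15 CPM per kb, and its range overlapped that of Tbk1. Neighbours among Tbk1, Enpp1, Tmem173 and Dnase2a also overlapped in that line, and Trex1 was last at 3.00 ± 0.727 CPM per kb. Among 12449 tested genes with a coding sequence, Cgas stood at percentile 0.996 in control cells, 15.6 in HD-het and 67.7 in HD-homo by level per kb, while Samhd1 stayed between percentiles 80.4 and 82.3 and Trex1 between 17.1 and 27.3. The cGAS gene was placed here by its Cgas row alone. The Mb21d1 row held 0.458 ± 0.0213 CPM per kb in HD-het and 12.2 ± 2.76 in HD-homo. If its fragments are separate ones, the level of cGAS would be higher in both HD lines, which was not tested.

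**Figure D3:**
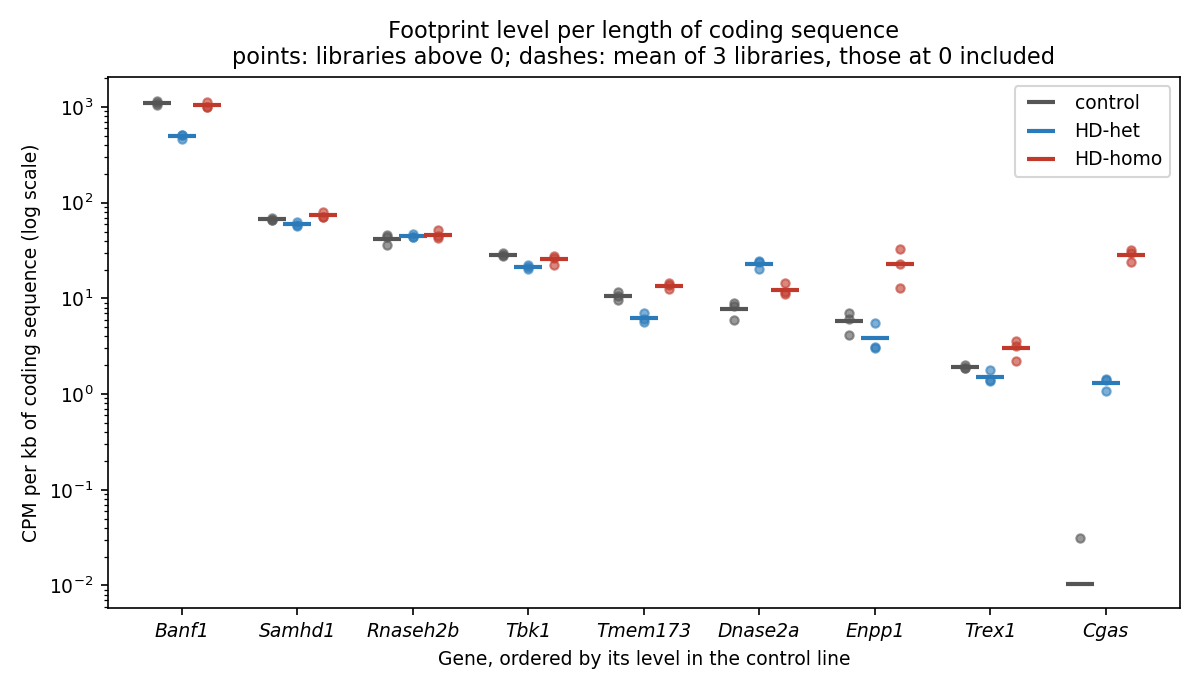
Footprint level in CPM per kb of coding sequence (y axis, log scale) of the 9 genes (x axis, in their order in control) in the 3 lines. Points are libraries above 0 and dashes are means of 3 libraries; the 2 control libraries at 0 for Cgas have no point. Banf1 is highest in each line and Cgas moves from the bottom to the middle of the range in HD-homo.

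In the wider list of nucleases and related enzymes, members included, genes were called in both directions, as they were over all rows. Of 23 genes listed, 18 were tested, and Trex2, Dnase1, Dnase1l2, Dnase1l3 and Dnase2b were too low. In HD-het 4 were higher and 7 lower than in control, beside 31.0% and 29.1% of all rows (median log2 difference -0.10). The higher ones were Dnase2a with Dnase1l1 and the lysosomal exonucleases Pld3 and Pld4, and Pld3 went from 27.6 ± 3.83 to 61.3 ± 8.55 CPM (SD, n = 3, log2 difference 1.15, adjusted p = 5.91e-05, edgeR). Pld4 was read thinly, at 0.205 ± 0.0796 CPM in control and 0.619 ± 0.0994 in HD-het. The largest falls were those of Rnaseh2c and of the flap endonuclease Fen1, from 80.2 ± 4.66 to 44.4 ± 6.05 CPM (-0.85, adjusted p = 7.89e-05, edgeR). In HD-homo 5 were higher and 2 lower, beside 23.3% and 22.3% of all rows (median 0.15), led upward by the mitochondrial endonuclease Endog, from 2.65 ± 0.471 to 5.40 ± 1.30 CPM (1.02, adjusted p = 0.00136, edgeR), and downward by Rnaseh2c and Dnase1l1 (-0.45, adjusted p = 0.00839, edgeR). Between the HD lines 10 were higher in HD-homo and 4 lower, beside 34.6% and 32.8% of all rows (median 0.31). The same shares over all rows stand beside the counts of the lists that follow.

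Genes of cGAMP hydrolysis and transport, Enpp1 included, also split. Of 12 listed, 11 were tested. In HD-het 4 were higher and 3 lower, beside 31.0% and 29.1% of all rows (median log2 difference -0.30). In HD-homo 3 were higher and 2 lower, beside 23.3% and 22.3% (median 0.12). Between the HD lines 5 were higher in HD-homo and 4 lower, beside 34.6% and 32.8% (median -0.10). Subunits of the volume-regulated anion channel, a route for cGAMP across the membrane, went different ways. Its obligate subunit Lrrc8a rose in HD-het from 27.7 ± 1.69 to 77.8 ± 7.60 CPM (1.49, adjusted p = 4.80e-06, edgeR). Lrrc8d fell there from 2.85 ± 0.519 to 1.65 ± 0.0540 CPM (-0.81, adjusted p = 0.00433, edgeR) and rose to 10.7 ± 1.94 CPM in HD-homo (1.90, adjusted p = 4.69e-06, edgeR). Lrrc8b fell in HD-homo (-1.23, adjusted p = 1.18e-04, edgeR), as did Lrrc8c (-0.32, adjusted p = 0.0469, edgeR). In HD-het Lrrc8c rose instead, from 63.8 ± 3.27 to 122 ± 16.0 CPM (0.94, adjusted p = 5.19e-05, edgeR). The folate carrier Slc19a1, which also imports cyclic dinucleotides, fell in HD-het from 38.9 ± 1.55 to 19.1 ± 4.31 CPM (-1.04, adjusted p = 4.37e-04, edgeR). The ATP-gated channel P2rx7 rose in HD-het from 0.364 ± 0.149 to 1.63 ± 0.271 CPM (2.06, adjusted p = 7.87e-04, edgeR).

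**Figure D4:**
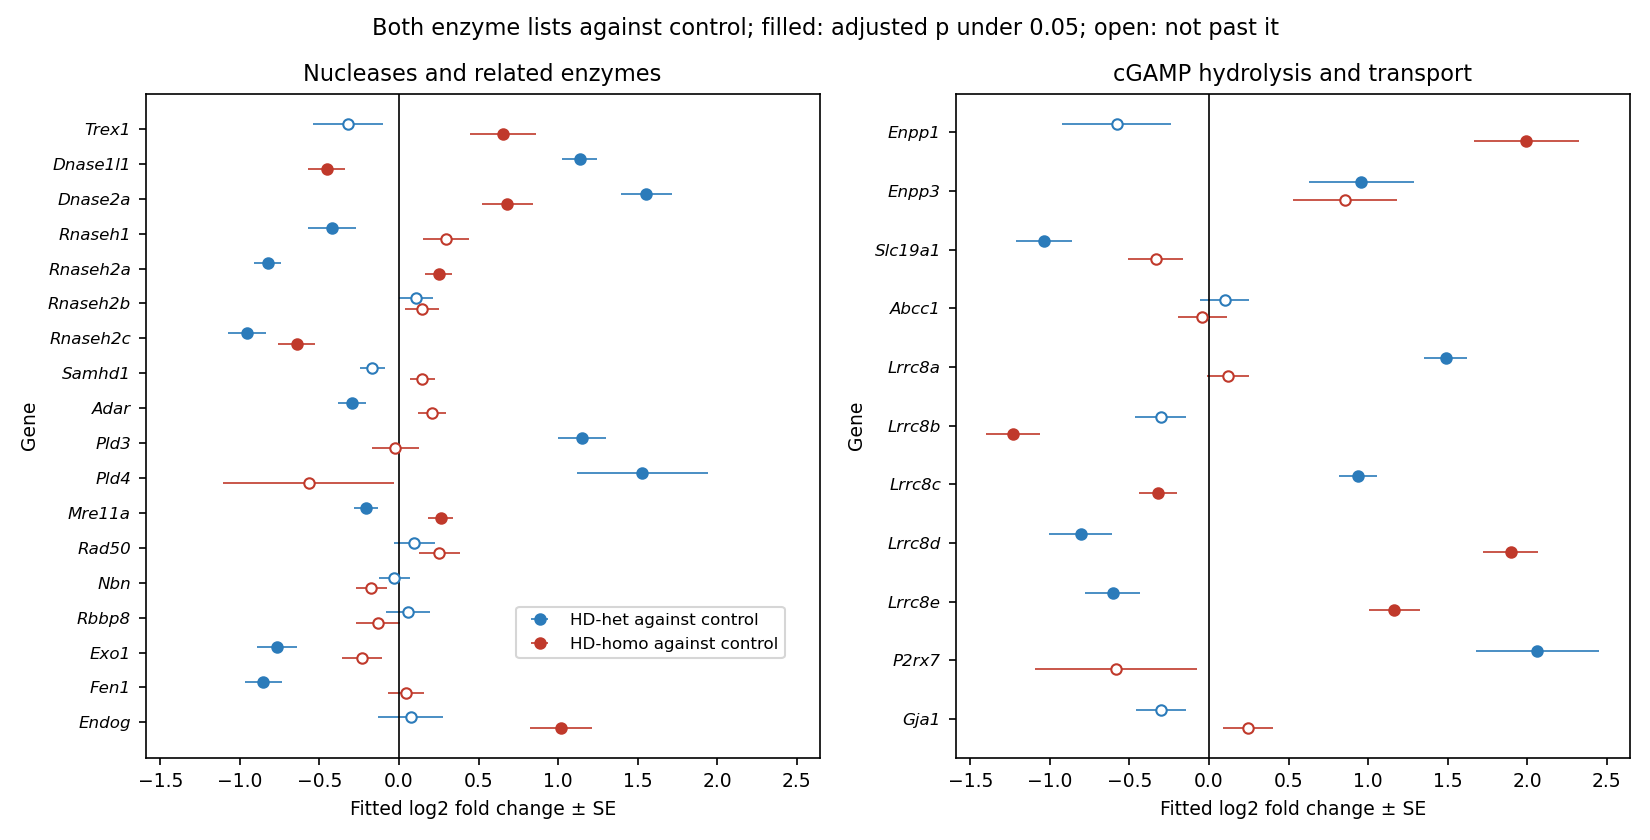
Fitted log2 difference from control with its SE (x axis) for 18 nucleases and related enzymes (left) and 11 genes of cGAMP hydrolysis and transport (right), for HD-het in blue and HD-homo in red. Filled points passed an adjusted p of 0.05. Dnase1l1, Rnaseh2a, Mre11a, Lrrc8c, Lrrc8d and Lrrc8e lie on opposite sides of 0 in both comparisons, past the threshold in each.

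Genes of the nuclear envelope and partners of BAF, Banf1 itself included, were all tested, 17 of 17. In HD-het 6 were higher and 5 lower, beside 31.0% and 29.1% of all rows (median log2 difference 0.04). In HD-homo 3 were higher and 5 lower, beside 23.3% and 22.3% (median -0.01). Beside Banf1, Lmnb2 fell in HD-het (-0.83, adjusted p = 4.39e-05, edgeR), while the lamin Lmnb1 (0.54, adjusted p = 3.89e-04, edgeR) and the inner membrane protein Lemd2 (0.57, adjusted p = 0.00129, edgeR) rose. In HD-homo Lbr, the lamin B receptor, fell from 198 ± 0.984 to 118 ± 4.93 CPM (-0.75, adjusted p = 3.07e-05, edgeR) and Lmna from 1035 ± 89.2 to 644 ± 17.8 CPM (-0.68, adjusted p = 6.77e-05, edgeR). The ESCRT genes Chmp4b (0.41, adjusted p = 0.00419, edgeR) and Vps4a (0.33, adjusted p = 0.0443, edgeR) rose there. Some of these genes were called in both lines. In HD-het Chmp4b was also higher (0.34, adjusted p = 0.00922, edgeR) and Lmna also lower (-0.47, adjusted p = 6.91e-04, edgeR), but Lbr was higher (0.29, adjusted p = 0.0126, edgeR). In HD-homo Lmnb2 was also lower (-0.29, adjusted p = 0.0381, edgeR), but Lmnb1 was lower too (-0.55, adjusted p = 5.14e-04, edgeR). Lemd2 and Vps4a were called in 1 line only. Between the HD lines 5 were higher in HD-homo and 6 lower, beside 34.6% and 32.8% of all rows (median -0.03).

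The 34 genes of STING signalling and trafficking, Tmem173 and Tbk1 included, were all tested. Of these, 12 were higher and 9 lower in HD-het, beside 31.0% and 29.1% of all rows (median log2 difference 0.03). In HD-homo 9 were higher and 2 lower, beside 23.3% and 22.3% (median 0.03). Npc1, the lysosomal cholesterol transporter, rose in HD-het from 19.8 ± 3.11 to 87.5 ± 16.4 CPM (2.14, adjusted p = 1.57e-06, edgeR), and the kinase Ikbke from 0.362 ± 0.0544 to 1.12 ± 0.126 CPM (1.60, adjusted p = 3.49e-04, edgeR). Nlrc3, an inhibitor of STING, fell there from 1.40 ± 0.0770 to 0.693 ± 0.116 CPM (-0.99, adjusted p = 0.00610, edgeR). The mean of Ikbke was higher again in HD-homo, at 1.67 ± 0.362 CPM. In HD-homo Usp18 and Irf7, both interferon-induced, had the largest rises, where Usp18 went from 4 counts in the 3 control libraries together to 1239 (adjusted p = 6.36e-06, edgeR) and Irf7 from 14 to 433 (adjusted p = 1.26e-06, edgeR). Usp18 was uneven among the HD-homo libraries, at 15.5 ± 10.2 CPM (SD, n = 3). Irf3, the transcription factor that TBK1 phosphorylates, fell in HD-homo to 9.22 ± 1.18 from 13.8 ± 0.238 CPM (-0.58, adjusted p = 0.00124, edgeR), and the ubiquitin ligase Rnf5 fell by 0.41 on the log2 scale (adjusted p = 0.0442, edgeR). Irf7 was also higher in HD-het than in control, with 72 counts (2.49, adjusted p = 8.73e-04, edgeR). Usp18 was not called there (21 counts, adjusted p = 0.171, edgeR). Between the HD lines 13 were higher in HD-homo and 13 lower, beside 34.6% and 32.8% of all rows (median 0.17).

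Of 22 regulators of cGAS, 19 were tested. In HD-het 4 were higher and 4 lower, beside 31.0% and 29.1% of all rows (median log2 difference 0.05). In HD-homo 6 were higher and 4 lower, beside 23.3% and 22.3% (median 0.00). Trim56, a ubiquitin ligase reported to act on cGAS, rose in both HD lines, from 5.15 ± 0.530 CPM in control to 16.1 ± 1.14 in HD-het (1.65, adjusted p = 1.17e-06, edgeR) and 10.3 ± 0.901 in HD-homo (1.01, adjusted p = 5.02e-05, edgeR). Casp1 held 3 counts over the control libraries, 89 in HD-het and 0 in HD-homo. The stress granule protein G3bp1 fell in HD-het from 471 ± 7.96 to 292 ± 12.9 CPM (-0.69, adjusted p = 3.51e-05, edgeR). In HD-homo Agbl5 rose (1.02, adjusted p = 0.00533, edgeR), and the deubiquitinase Usp27x (-0.98, adjusted p = 0.00137, edgeR) and Zcchc3 (-0.79, adjusted p = 0.0168, edgeR) fell. Between the HD lines 8 were higher in HD-homo and 8 lower, beside 34.6% and 32.8% of all rows (median 0.05).

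Other proposed DNA sensors gave 1 higher and 3 lower of 11 tested in HD-het (median log2 difference -0.14) and 4 higher and 3 lower in HD-homo (median -0.05). The inflammasome sensor Aim2 held 1 count over the control libraries, 33 in HD-het and 108 in HD-homo, where it stood at 1.29 ± 0.642 CPM (SD, n = 3). Zbp1 rose in HD-homo from 0.232 ± 0.0931 to 1.88 ± 0.672 CPM (3.03, adjusted p = 9.32e-05, edgeR). Xrcc6, a subunit of Ku, fell in HD-het from 111 ± 2.93 to 60.5 ± 0.420 CPM (-0.88, adjusted p = 1.58e-06, edgeR), and Ddx41 fell there too (-0.67, adjusted p = 3.49e-04, edgeR). In HD-homo the falls were led by Lrrfip1 (-0.62, adjusted p = 3.87e-05, edgeR) and Dhx9 (-0.33, adjusted p = 0.00434, edgeR). Between the HD lines 5 were higher in HD-homo and 2 lower (median 0.13). Over all 6 lists without the members, 29.4% of 102 genes were higher and 27.5% lower in HD-het, near the 31.0% and 29.1% of all rows. The shares were 25.5% and 17.6% in HD-homo, against 23.3% and 22.3%, and 39.2% and 35.3% between the HD lines, against 34.6% and 32.8%. The medians were 0.04, 0.00 and 0.07.

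The genes whose log2 CPM ran most like Cgas, Enpp1, Trex1 and Samhd1 over the 9 libraries were sought among 9101 named genes, and since libraries of one line lie together these correlations mostly describe the 3 line levels. For Cgas they were Ddx58 (r = 0.999), which encodes the RNA sensor RIG-I, Cavin2 (0.998) and Syce2 (0.997), and 156 genes exceeded 0.95. Ddx58 stood at 8.50, 17.2 and 60.8 CPM on average in control, HD-het and HD-homo. For Enpp1 they were Cdh6 (r = 0.990), Trp53rkb (0.979) and B4galnt1 (0.979), and 30 genes exceeded 0.95. For Trex1 they were Eef1akmt4 (r = 0.984), Diablo (0.976) and Gpr137b (0.975), with 17 above 0.95, and for Samhd1 Cnot6 (r = 0.979), Dnaja3 (0.973) and Rabep2 (0.969), with 18.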

How the data were processed

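Ribosome-protected fragments were read in 9 libraries, 3 for each of 3 lines. The authors deposited raw counts per gene symbol, with no normalization and no pooling; their processing notes name cutadapt, Bowtie 1.0.1 and build mm10, and the counting program, annotation and use of strand are not given in the sources used here. Of 36410 rows, 19597 were 0 in every library, 93.0% matched a RefSeq gene of GRCm38.p6, and 26 rows with symbols turned into dates held 0.252% of counts. Every column was matched to a sample by name.

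Genes were filtered with filterByExpr and tested with edgeR 4.0.16 in R 4.3.3: TMM factors, 1 quasi-likelihood fit over all 9 libraries by line, and Benjamini-Hochberg adjustment over 12678 rows at 0.05. The SE is the log2 difference over the square root of F, and 95% intervals use the fit's degrees of freedom. CPM per kb used the longest coding sequence in GENCODE M21. Alternatives were RLE factors, library totals, DESeq2 1.42.0, other filters and thresholds, fits of 6 libraries, a replicate block, both cGAS rows summed, rows under older symbols left out, and each library left out. Offsets for GC content and length of the coding sequence were added after the data were seen. The fit was also run on counts simulated from its own means and dispersions, with few changed genes. Such a run does not test the composition scaling where many rows differ, as they do here.

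The members and gene lists were chosen with earlier results of these data known. Every member is named; from each list and comparison with control, the 2 strongest called genes in each direction are named where their mean reached 1 CPM in the higher line, except 1 gene that is not reported here; for 4 members, the 3 genes with the highest Pearson r (log2 of CPM plus 0.5, genes of at least 5 CPM); and genes that overlap members. Rnaseh2a, Mto1, Pld4, Mre11a and Lrrc8e were added with their values known. Libraries of one line differed by more than sampling noise.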

Additional observations from a re-analysis of the deposited data

How the results depend on the processing

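No log2 difference of a member changed sign past the threshold in the 21 settings tried. Settings that only made the threshold stricter reused the main fit, so their log2 differences could not change. Of the 10 member rows, 6 were called for HD-het and 6 for HD-homo against control, and 9 between the HD lines. Both cGAS rows are in these counts. Over all rows the shares called higher and lower were 31.0% and 29.1%, 23.3% and 22.3%, and 34.6% and 32.8%. Asking for at least a 2-fold change left 3 member rows for HD-homo against control and 5 between the HD lines, both cGAS rows included. For HD-het against control it left Cgas, Mb21d1, Banf1 and Dnase2a. Of 12678 rows it left 1760 higher and 876 lower for HD-het and 1134 and 1048 for HD-homo. Between the HD lines it left 1403 and 2057. Leaving out each library in turn gave 6 to 8, 4 to 6 and 8 to 9 of the member rows. Of 618 log2 differences of members over the settings, 15 moved across the threshold by a change of fit, 11 lost and 4 gained, and a stricter threshold removed 12. Replicates share numbers between lines but did not deviate together: same-numbered libraries correlated at -0.36 to 0.17 in their deviations, and not every library correlated best with its own number. With the replicate block 6, 6 and 9 rows were called, and it changed no call of a member. With offsets for GC content and length, the median over all genes in HD-het against control shifted by -0.11, and Samhd1 was -0.28 relative to it; the cause of these moves was not tested. At least 10 counts in every library left out both cGAS rows. Depth limits both cGAS rows in control and in HD-het (Mb21d1 15 to 24 counts, Cgas 35 to 77) and Trex1 (28 to 122 counts per library).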
